A study of Mus musculus with 8 samples.

Results

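Cells that secrete large amounts of peptide hormone fold and cut their cargo in the endoplasmic reticulum (ER), and 3 families of ER membrane proteins report the folding load to the nucleus. IRE1, encoded by Ern1, is a kinase and endoribonuclease that removes a short intron from the Xbp1 transcript, so that the spliced transcript encodes the active bZIP transcription factor XBP1s. ATF6 and its paralogue ATF6B are transcription factors tethered in the ER membrane. Under load they move to the Golgi, where the site-1 protease (Mbtps1) and then the site-2 protease (Mbtps2) cut them and release the part that enters the nucleus. The same proteases cut the factors of the CREB3 family, among them Creb3l2, and the SREBP factors of lipid synthesis. The transcripts described here are these 6 genes, Xbp1, Ern1, Atf6, Atf6b, Mbtps1 and Mbtps2, found by their symbols in the deposited FPKM table and joined by Ensembl identifier to the raw counts, out of 48526 genes in the count table. All 6 were found, and all 6 passed the filter on low counts.

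RNA was sequenced from neuro-intermediate lobes of the mouse pituitary, the tissue of the POMC-producing melanotropes, in 8 libraries of strain C57B6, each made from a pool of 5 lobes. The mice were males aged 3 months. Each of 4 genotypes, WT, ACreb3l2, AXBP1 and ACreb3l2/AXBP1, gave 2 libraries. Both transgenes stand under the rat POMC promoter, which is active in POMC cells, and each encodes the leucine zipper of its target behind an acidic stretch in place of the DNA-binding region, a dominant negative design that holds the partner protein off DNA. The last genotype carries both transgenes, WT carries none, and each transgene is represented by 1 transgenic line. The question put to these genes is whether blocking Creb3l2, XBP1 or both in melanotropes changed the transcripts of the sensors, of the factor that IRE1 activates and of the proteases that activate ATF6 and Creb3l2.

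Total counts ran from 28256086 to 37988912 per library, and the raw counts of the 6 genes from 435 to 17837. The labels name the cell type as melanotropes, and the lobes also held transcripts of other cells. All 5 melanotrope markers were detected in every library, and their summed normalized count was 3616312 to 5404003 in WT, 3580676 to 3997585 in ACreb3l2, 3319707 to 3895705 in AXBP1 and 2146609 to 2917762 in ACreb3l2/AXBP1. Pomc made up most of this sum. The median log2 change of the 5 against WT was -0.25 and -0.24 with the single transgenes, ACreb3l2 and AXBP1, and -0.66 with both. With both, Tbx19, a transcription factor of POMC cells, was called lower (-0.88, edgeR adjusted p = 0.0245). Mean normalized counts in WT and ACreb3l2/AXBP1 were 4320516 and 2408017 for Pomc and 145238 and 91767 for Pcsk2. They were closer for Pax7, at 12539 and 11903, and for Drd2, at 9644 and 8460. Of the other cells, for WT, ACreb3l2, AXBP1 and ACreb3l2/AXBP1 in that order, the 5 endothelial genes summed to 3153 to 3986, 2717 to 4520, 4205 to 5386 and 4638 to 5611. The 6 fibroblast and pericyte genes summed to 21549 to 28336, 21543 to 27619, 28193 to 32634 and 28656 to 34130. For the 6 pituicyte and astrocyte genes the sums were 15223 to 18022, 17194 to 20905, 17696 to 19382 and 17600 to 20244, with median log2 changes against WT of 0.34, 0.19 and 0.33, and Aqp4, a water channel of astrocytes, was called higher in ACreb3l2/AXBP1 (0.51, edgeR adjusted p = 0.0464). The 5 macrophage genes gave 9683 to 10816, 9724 to 13326, 9929 to 10473 and 9085 to 10778, and the 6 anterior lobe genes, which include Gh and Prl, 149442 to 227162, 118281 to 154158, 76554 to 78205 and 99788 to 202321. In ACreb3l2, AXBP1 and ACreb3l2/AXBP1 the median log2 changes against WT were 0.01, 0.42 and 0.56 for the endothelial genes. They were -0.04, 0.31 and 0.4 for the fibroblast and pericyte genes and 0.15, 0.01 and -0.03 for the macrophage genes. For the anterior lobe genes they were -0.01, -0.61 and -0.09. No other marker was called against WT. No marker was at 0 in a group. In bulk tissue, fewer cells of a type and less RNA per cell cannot be told apart. The part of these shifts in the results below was not tested.

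The first sequence is the piece of Xbp1 on which IRE1 acts, shown because the deposited gene-level counts add up both of its forms. In transcript Xbp1-201 of GENCODE M21 (2129 bases) the 26-base intron lies in exon 4, at chr11:5524279-5524304 on the plus strand of mm10. The stretch shown is chr11:5524249-5524334, with the intron in capitals.
Xbp1 intron: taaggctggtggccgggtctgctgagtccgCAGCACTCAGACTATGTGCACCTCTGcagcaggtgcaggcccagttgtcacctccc
Read from the start codon, the transcript with the intron encodes 267 codons, and without it the frame runs on for 371. Counts per gene give the sum of both, and the splice ratio was not analysed here.

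The AXBP1 transgene itself carries Xbp1 sequence, which is why its cloning primers are shown. The parts of the study's primers that match Xbp1-201 are given 5′ to 3′, the sense primer lying at chr11:5521990-5522013 in exon 2 and the antisense primer at chr11:5525223-5525242 in exon 5, where it ends at the stop codon of the spliced form.
AXBP1 sense primer: gagcagcaagtggtggatttggaa
AXBP1 antisense primer: ttagacactaatcagctggg
Between them lie codons 92 to 371 of the spliced form, or 843 of the 2129 bases of the transcript (39.6%) once the intron is left out. Reads from this part of the transgene have the same sequence as endogenous Xbp1. An Xbp1 count from AXBP1 or ACreb3l2/AXBP1 lobes may therefore hold transgene reads. The paper kept lines whose transgene mRNA was more than 5 times the endogenous mRNA, measured for AXBP1 by RT-qPCR against spliced Xbp1. Mean normalized counts of Xbp1 were 12656 for WT, 13149 with the AXBP1 transgene alone and 15247 with both transgenes. The share of transgene reads in these counts was not tested.

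The DNA element bound by XBP1s and Creb3l2 is given by the reporter oligo of the study, in which capitals mark the 3 copies of TGACGTGG, the unfolded protein response element (UPRE).
3xCreb3l2-RE oligo: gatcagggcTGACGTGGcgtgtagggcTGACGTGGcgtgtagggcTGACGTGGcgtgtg
The promoter windows of RefSeq on GRCm38.p6, 250 bases before to 50 after each start, were searched on both strands for this element, for the cAMP response element TGACGTCA, for the ER stress element (ERSE, CCAAT then 9 bases then CCACG) and for ERSE-II (ATTGG then 1 base then CCACG). Of 32851 windows, 0.676% held the UPRE, 1.79% the cAMP response element, 0.119% the ERSE and 0.0365% the ERSE-II. A window was found for 5 of the 6 genes, Xbp1, Ern1, Atf6b, Mbtps1 and Mbtps2, and none of the 5 held any of these exact letters. The shorter core ACGT, which the first 2 motifs contain and which was searched after the others, was found in Xbp1 and Atf6b, and in 30.9% of all windows. In Xbp1 it lies within chr11:5520598-5520625, plus strand, with the core in capitals.
Xbp1 promoter: acgggacgggggACGTagcgccggacat
Among the pathway lists described below, the ERSE was found in 5 of 8 windows of ATF6 targets (Hspa5, Calr, Derl3, Hsp90b1 and Creld2) and in 2 of 17 of XBP1 targets (Dnajc3 and Pdia6). Sec24d held the UPRE, Dnajb11, Herpud1 and Nucb1 the ERSE-II, and Ppp1r15a the cAMP response element. Of these genes Creld2, Sec24d, Dnajb11, Herpud1 and Ppp1r15a were called lower in ACreb3l2/AXBP1 lobes, and the others were not called there. In that group 10.1% of all genes were called. Of the lists, 13 of 20 XBP1 targets, 3 of 10 ATF6 targets and 5 of 5 PERK branch genes were called. A link between motif and change was not tested. Matches are shown for 3 genes that were lower in ACreb3l2/AXBP1 lobes, with the match in capitals. Sec24d holds the UPRE at chr3:123267458-123267489, Dnajb11 an ERSE-II at chr16:22857840-22857874, and Herpud1 an ERSE-II at chr8:94386365-94386399, all on the plus strand.
Sec24d promoter: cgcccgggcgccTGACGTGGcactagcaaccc
Dnajb11 promoter: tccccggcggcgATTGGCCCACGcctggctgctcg
Herpud1 promoter: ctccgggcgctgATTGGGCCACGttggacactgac

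Levels were first compared between the 6 genes in WT, on the FPKM scale, which accounts for transcript length. Xbp1 stood highest, at 163 ± 10.1 FPKM (SD, n = 2), above 98.4% of the 24357 genes with a WT mean over 0. Mbtps1 followed at 56.8 ± 1.14 FPKM (above 94.6% of genes), then Ern1 at 18.8 ± 3.13, Atf6 at 18.5 ± 0.45, Atf6b at 13.2 ± 0.656 and Mbtps2 at 3.52 ± 0.594 FPKM. Ern1 and Atf6 did not differ beyond their spread in WT, since the Ern1 libraries, at 16.6 and 21 FPKM, enclosed those of Atf6 at 18.8 and 18.2. All other neighbours in this order were separated in both WT libraries. Site-1 protease transcript thus exceeded site-2 protease transcript by a ratio of 14.6 to 19.1 in the 8 libraries, and Atf6 exceeded Atf6b by 1.17 to 1.48. The order changed in 1 place: in the AXBP1 and ACreb3l2/AXBP1 libraries Atf6, at 14.7 to 15.2 FPKM, lay above Ern1 at 12.2 to 12.8 FPKM in each library, while in ACreb3l2 the 2 genes overlapped.

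**Figure D1:**
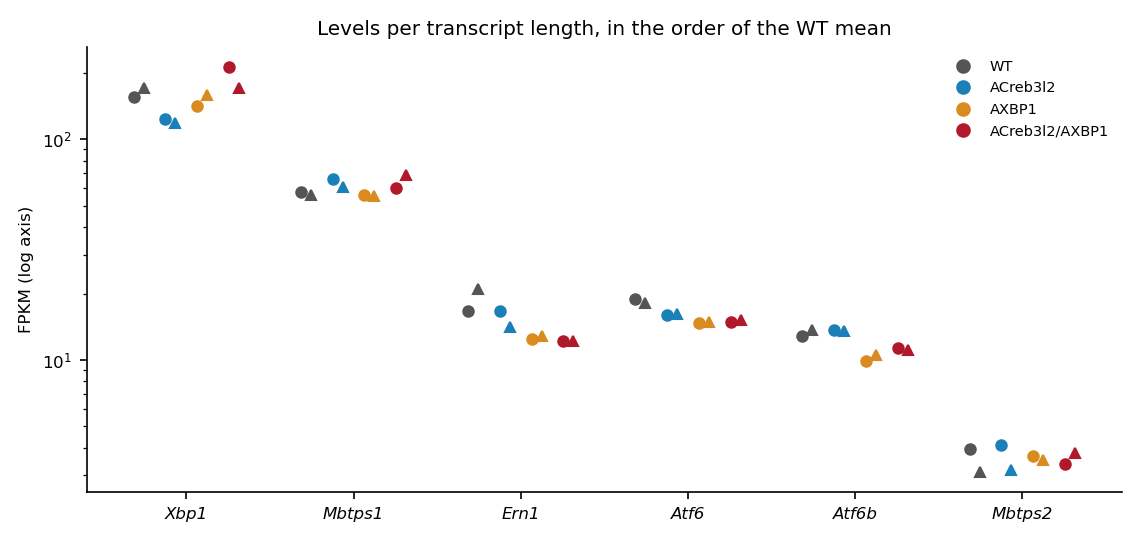
FPKM (log axis) of the 6 genes in each library, ordered by the WT mean. Circles are replicate 1, triangles replicate 2, and colours mark the groups. Xbp1 lies highest and Mbtps2 lowest in all 8 libraries.

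Changes were tested on the raw counts with edgeR's quasi-likelihood test. Normalized counts are counts scaled by TMM to the mean depth, and called means that the adjusted p (Benjamini-Hochberg over 15580 genes) of a gene was under 0.05. With 2 libraries per group an exact permutation test of a single gene cannot go below a two-sided p of 0.333, so none is given. Nothing in the labels places the libraries of a group in separate cohorts beyond the pools, and the p-values measure the spread between these pools. The 3 comparisons with WT share the same 2 WT libraries, so the values are given side by side. Of all genes tested, 3.04% were called in ACreb3l2 against WT, 0% in AXBP1 and 10.1% in ACreb3l2/AXBP1. Of the 6 genes, none was called in ACreb3l2, none in AXBP1 and 2 in ACreb3l2/AXBP1, both lower: Ern1 and Atf6. At an unadjusted p under 0.05 the numbers were 3 (Xbp1, Ern1 and Atf6), 2 (Ern1 and Atf6b) and 4 (Ern1, Atf6, Atf6b and Mbtps1), beside 16.8%, 9.97% and 29.7% of all genes. DESeq2 called 1, 0 and 2 in the same order, beside 5.15%, 0.608% and 14.8% of the genes to which it gave an adjusted p.

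Ern1, the gene of the sensor and endoribonuclease IRE1 (ENSMUSG00000020715, mm10 chr11:106394650-106487852, minus strand, protein coding), measured 3717 and 4601 for WT, 3570 and 3337 for ACreb3l2, 2979 and 3178 for AXBP1, and 3008 and 2700 for ACreb3l2/AXBP1 in normalized counts. All 6 transgenic libraries lay below both WT libraries, and the AXBP1 and ACreb3l2/AXBP1 libraries below those of ACreb3l2. In ACreb3l2/AXBP1 the gene fell by 0.54 on the log2 scale (SE 0.11, edgeR adjusted p = 0.0169), to 0.686 times the WT level. The single transgenes gave log2 changes of -0.43 (AXBP1, edgeR adjusted p = 0.474) and -0.27 (ACreb3l2, edgeR adjusted p = 0.252), each with an SE of 0.11, which did not pass and which were -0.27 and -0.11 without WT replicate 2. The 2 WT libraries were the most spread of any group. Without WT replicate 2 the change in ACreb3l2/AXBP1 was -0.39 (edgeR adjusted p = 0.0948), and without replicate 2 of ACreb3l2/AXBP1 its adjusted p was 0.143. With only these 2 groups in the fit the adjusted p was 0.0528, and over all alternatives it ran from 7.42e-06 to 0.143.

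Xbp1 (ENSMUSG00000020484, chr11:5520659-5525893, plus strand, protein coding) measured 11877 and 13436 for WT, 9155 and 9205 for ACreb3l2, 12448 and 13850 for AXBP1, and 17639 and 12854 for ACreb3l2/AXBP1 in normalized counts. The ACreb3l2 libraries were the lowest of the 8 and almost equal, while the ACreb3l2/AXBP1 libraries spread widely and 1 of them overlapped WT. Against WT the log2 change for ACreb3l2 was -0.46 (95% interval -0.78 to -0.15, edgeR adjusted p = 0.127), for AXBP1 0.06 (-0.26 to 0.37, edgeR adjusted p = 0.9, but -0.12 in the FPKM fits) and for ACreb3l2/AXBP1 0.27 (-0.04 to 0.58, edgeR adjusted p = 0.227). None passed in edgeR. The last value was 0.02 without ACreb3l2/AXBP1 replicate 1, 0.47 without replicate 2 and 0.43 with library sizes alone. The change in ACreb3l2 passed with DESeq2 (adjusted p = 0.017) and without the filter on low counts (edgeR adjusted p = 0.000319). Without the filter 1455 genes were called in all in that comparison, beside 473 in the main fit. With the replicate block the change had an edgeR adjusted p of 0.183, and without WT replicate 2 it was -0.37.

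Xbp1 was also the gene that differed most between the transgenic groups. Its log2 difference was -0.52 between ACreb3l2 and AXBP1 (SE 0.14, unadjusted p = 0.00429 and adjusted p = 0.18 in edgeR). The FPKM fits gave -0.31 there, beside a median of 0.183 over all genes in the FPKM values. Between ACreb3l2/AXBP1 and ACreb3l2 the log2 difference of Xbp1 was 0.73 (SE 0.14, unadjusted p = 0.000431 and adjusted p = 0.559 in edgeR). The interaction, the part of the change with both transgenes that the 2 single changes do not add up to, was 0.68 on the log2 scale (SE 0.197, unadjusted p = 0.00674 and adjusted p = 1 in edgeR). None of these was called in edgeR. Without replicate 1 or replicate 2 of ACreb3l2/AXBP1 the second was 0.49 or 0.94 and the interaction 0.43 or 0.89. DESeq2 called the first and the second, and over all alternatives the adjusted p ran from 7.09e-05 to 0.733 for the first, from 7.61e-10 to 0.999 for the second and from 0.00113 to 1 for the interaction. In both differences the group with the higher Xbp1 count carries the transgene that shares sequence with Xbp1, described above with its primers. WT, which carries no transgene, also had a higher mean normalized count than ACreb3l2 (12656 against 9180), close to that of AXBP1 (13149). The part of transgene reads in these differences was not tested. The FPKM ratio of Xbp1 to Ern1, the substrate to the enzyme, was 9.39 and 8.09 for WT, 7.37 and 8.36 for ACreb3l2, 11.4 and 12.4 for AXBP1, and 17.4 and 13.9 for ACreb3l2/AXBP1. The 4 libraries with the AXBP1 transgene thus had the 4 highest ratios.

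Atf6, the first of the paralogous membrane-bound factors (ENSMUSG00000026663, chr1:170704674-170867771, minus strand, protein coding), measured 5264 and 5273 for WT, 4362 and 4600 for ACreb3l2, 4721 and 4677 for AXBP1, and 4487 and 4167 for ACreb3l2/AXBP1 in normalized counts. The WT libraries differed little, and all 6 transgenic libraries lay below both. In ACreb3l2/AXBP1 the gene fell by 0.28 on the log2 scale (SE 0.0781, edgeR adjusted p = 0.0474), to 0.821 times the WT level. The single transgenes gave log2 changes of -0.23 (ACreb3l2, edgeR adjusted p = 0.161) and -0.16 (AXBP1, edgeR adjusted p = 0.511), with the same SE. The value in AXBP1 was -0.1 with library sizes alone and -0.33 to -0.31 in the FPKM fits. The call stood close to the threshold and was lost in 12 of 17 alternatives, with adjusted p from 0.0293 to 0.273, among them the fit with library sizes alone and 7 of the 8 fits without 1 library, while the log2 change stayed below 0, from -0.34 to -0.12.

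Atf6b, its paralogue (ENSMUSG00000015461, chr17:34647146-34655074, plus strand, protein coding), measured 1195 and 1335 for WT, 1186 and 1130 for ACreb3l2, 1079 and 1093 for AXBP1, and 1144 and 1021 for ACreb3l2/AXBP1 in normalized counts. Again all 6 transgenic libraries lay below both WT libraries, at the narrowest by less than the gap between the WT libraries. In the order ACreb3l2, AXBP1, ACreb3l2/AXBP1 the log2 change was -0.13, -0.22 and -0.22 (edgeR adjusted p = 0.563, 0.5 and 0.159), none passed, and the first was 0.03 in the FPKM fits. Without WT replicate 2 the first and the second were -0.05 and -0.14. With library sizes alone the first was -0.05 and the third -0.06, and the FPKM fits gave -0.37 to -0.35 for the second.

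Mbtps1, the site-1 protease (ENSMUSG00000031835, chr8:119508156-119558735, minus strand, protein coding), measured 9409 and 9438 for WT, 10425 and 10118 for ACreb3l2, 10487 and 10154 for AXBP1, and 10576 and 11011 for ACreb3l2/AXBP1 in normalized counts. All 6 transgenic libraries lay above both WT libraries. Its log2 change was 0.12, 0.13 and 0.2 in the 3 transgenic groups, in that order (edgeR adjusted p = 0.463, 0.573 and 0.131), and none passed. The value in ACreb3l2 was 0.2 with library sizes alone, the value in AXBP1 was -0.03 in the FPKM fit, and that in ACreb3l2/AXBP1 was 0.36 with library sizes alone (edgeR adjusted p = 0.0371), where the median of all genes also shifted upward, as given below. Mbtps2, the site-2 protease (ENSMUSG00000046873, chrX:157535371-157598715, minus strand, protein coding), measured 552 and 474 for WT, 517 and 545 for ACreb3l2, 614 and 562 for AXBP1, and 532 and 659 for ACreb3l2/AXBP1 in normalized counts, and both AXBP1 libraries lay above WT while the other groups overlapped it. Its log2 change was 0.05, 0.2 and 0.21 (edgeR adjusted p = 0.896, 0.606 and 0.299). Without 1 library the value ran from 0.09 to 0.31 in AXBP1, the lower end without WT replicate 2, and from 0.04 to 0.36 in ACreb3l2/AXBP1, the ends without its replicates 2 and 1, and the FPKM fits gave 0.03 to 0.04 in both groups. With library sizes alone it was 0.12 in ACreb3l2 and 0.38 in ACreb3l2/AXBP1. The widest of the 3 intervals of Mbtps2, in ACreb3l2/AXBP1, ran from -0.08 to 0.51, so a rise of that size could not be told from no change. Of its exonic bases 28.4% also belong to Yy2 on the same strand, and reads from there may be lost from its count, while the other 5 genes overlap no exon of another gene.

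**Figure D2:**
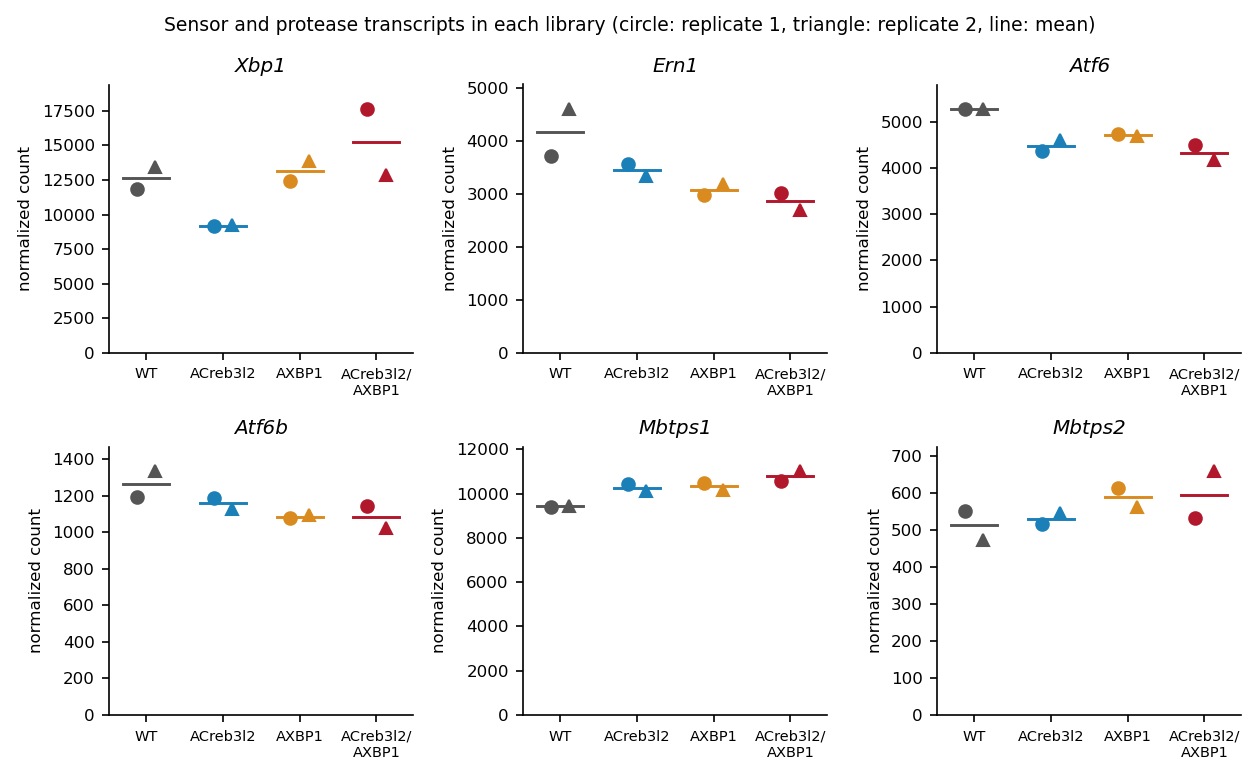
Normalized counts of the 6 genes in each library, with the axis from 0. Circles are replicate 1, triangles replicate 2, and lines the group means (n = 2). Ern1, Atf6 and Atf6b lie below both WT libraries in all 6 transgenic libraries, and Mbtps1 above.

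Separation from WT of this kind was common among all genes. Of the 15580 genes tested, 12.2% had all 6 transgenic libraries below both WT libraries and 10.2% had all 6 above, against 3 and 1 of the 6 genes described here. Counts scaled by library size alone gave the same separation of Ern1, Atf6, Atf6b and Mbtps1, beside 6.75% of all genes below and 16.2% above. On the FPKM scale, where 14.1% of all genes lay below and 2.77% above, the separation held for Atf6, and the other 3 overlapped WT in at least 1 library. The scaling matters here, because the median log2 change of all genes against WT was 0.001 in AXBP1 after TMM and -0.16 in the FPKM values, and in ACreb3l2/AXBP1 it was 0.012 after TMM and 0.173 with library sizes alone.

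**Figure D3:**
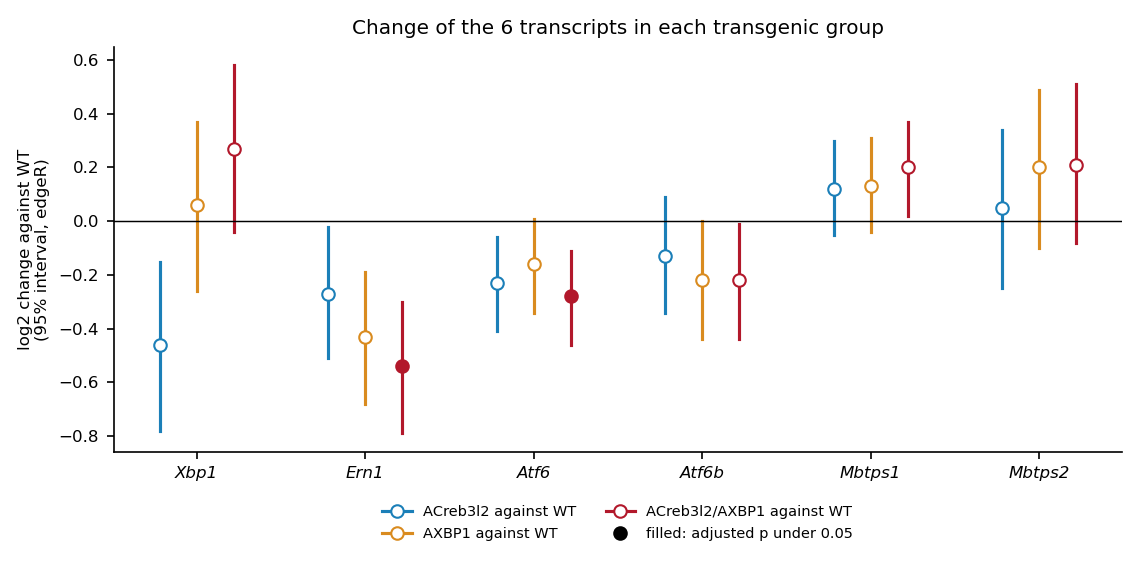
Log2 change of the 6 genes in each transgenic group against WT, with 95% intervals from the edgeR fit of all 8 libraries. Filled points have an adjusted p under 0.05, which are Ern1 and Atf6 in ACreb3l2/AXBP1 at -0.54 and -0.28.

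The transgenic groups were then compared with each other. Of all genes, 0.719% were called between ACreb3l2 and AXBP1, 0.623% between ACreb3l2/AXBP1 and AXBP1, 0% between ACreb3l2/AXBP1 and ACreb3l2 and 0% in the interaction. None of the 24 tests of the 6 genes in these 4 comparisons was called in edgeR, and the lowest adjusted p was 0.18. DESeq2 called 1.76%, 1.85%, 0.231% and 0.0257% of the genes to which it gave an adjusted p, in the same order, and Xbp1 in the first and the third. At an unadjusted p under 0.05, which 9.49%, 11.1%, 7.14% and 2.48% of all genes had, Xbp1 stood out in 3 of them, given above, and Ern1 in 1, with a log2 difference of -0.28 between ACreb3l2/AXBP1 and ACreb3l2 (SE 0.11, unadjusted p = 0.0311 and adjusted p = 0.688 in edgeR). For the other 4 genes the lowest unadjusted p was 0.158. In edgeR no difference between ACreb3l2/AXBP1 and a single transgenic group passed for any of the 6, except for Xbp1 against ACreb3l2 without the filter on low counts (edgeR adjusted p = 7.61e-10). That setting called 513 genes in all in this comparison, beside 0 in the main fit. For Atf6 the 95% interval of the difference between ACreb3l2/AXBP1 and ACreb3l2 was -0.22 to 0.12, and for Mbtps1 -0.1 to 0.25, which bounds these differences without showing that the groups were alike.

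Across the 8 libraries, log2 CPM of Ern1 and Atf6b rose and fell together (Pearson r = 0.96), and Atf6 and Mbtps1 moved in opposite directions (r = -0.95), whereas Xbp1 followed none of the other 5 (r from -0.2 to 0.1). These are descriptions over 8 libraries that share group means, and carry no test. Of all 15580 genes, the one most like Ern1 was Dnajb11, an ER co-chaperone of the HSP70 chaperone BiP, with r = 0.996, followed by Rab8a and Mon1a (both 0.984). Dnajb11 measured 3026 and 3521 for WT, 2859 and 2722 for ACreb3l2, 2527 and 2596 for AXBP1, and 2537 and 2363 for ACreb3l2/AXBP1 in normalized counts, so its 8 libraries stood in the same order as those of Ern1. The genes most like Atf6 were 9530068E07Rik (0.99), Tor1b (0.987) and Tmem107 (0.984), and those most like Atf6b were Cmtm8 (0.986), Prmt7 (0.984) and Nectin2 (0.983). Mbtps1 was most like Slc35f4 (0.985), Kcnn3 (0.98) and Yy1 (0.976), Mbtps2 like Cntnap2, Zfp456 and Tmem56 (all 0.975), and Xbp1, with lower values, like Taf6l (0.947), Cib2 and Kctd1 (both 0.918).

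**Figure D4:**
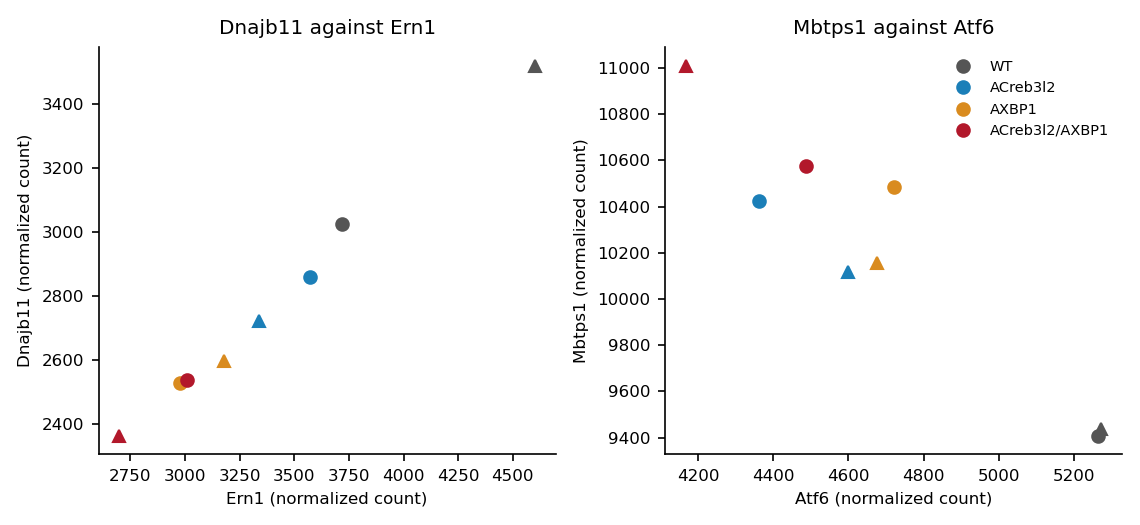
Normalized counts of Dnajb11 against Ern1 (left) and of Mbtps1 against Atf6 (right), 1 point per library, circles for replicate 1 and triangles for replicate 2. Axes do not start at 0. On the left the points run along a line, and on the right the 2 WT libraries stand apart at high Atf6 and low Mbtps1.

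Known targets and other genes of the branches were then compared in lists. A list does not measure the activity of a single factor. In the paper's reporter assays both Creb3l2 and XBP1 activated the promoter of Ssr3, a gene of the XBP1 list. The shares of all genes given above for the same rule and comparison are the background of each list. Of 20 genes that XBP1s is known to induce, which serve translocation, folding and vesicle transport in the secretory pathway, 6 fell in ACreb3l2, 0 were called in AXBP1 and 13 fell in ACreb3l2/AXBP1, with none called higher. In AXBP1 11 had an unadjusted p under 0.05 (9.97% of all genes), DESeq2 called 2 (0.608% of the genes it could adjust), and all 20 had a log2 change below 0 (49.7% of all genes). The list medians were -0.23, -0.26 and -0.43, beside 0.01, 0 and 0.01 for all genes. Sec24d, a cargo adaptor of COPII vesicles, measured 4196 and 5008 for WT, 2227 and 2215 for ACreb3l2, 3972 and 3831 for AXBP1, and 2183 and 1809 for ACreb3l2/AXBP1 in normalized counts. The libraries with the ACreb3l2 transgene were separate from the rest. It fell by 1.05 on the log2 scale with ACreb3l2 alone and by 1.21 with both transgenes (edgeR adjusted p = 0.00136 and 0.000656), and it was lower in ACreb3l2 than in AXBP1 by a log2 difference of -0.81 (edgeR adjusted p = 0.0103, lost in 6 of 16 alternatives with values up to 0.127). Serp1, a small protein bound to the translocon, measured 7582 and 7781 for WT, 4557 and 4893 for ACreb3l2, 5921 and 5879 for AXBP1, and 4411 and 4382 for ACreb3l2/AXBP1 in normalized counts, with log2 changes of -0.7 in ACreb3l2 and -0.8 in ACreb3l2/AXBP1 (edgeR adjusted p = 0.00166 and 0.000747). In the same 2 groups Sec61a1, the channel subunit of the translocon, fell by 0.67 and 0.87 on the log2 scale (edgeR adjusted p = 0.0164 and 0.00331). The call of Sec61a1 in ACreb3l2 was lost in 3 of 16 alternatives (adjusted p up to 0.112). Srpr, the alpha subunit of the signal recognition particle receptor, fell by 0.53 in ACreb3l2 (edgeR adjusted p = 0.0187, lost in 5 of 16 alternatives with values up to 0.122), and Srprb, its beta subunit, by 0.83 in ACreb3l2/AXBP1 (edgeR adjusted p = 0.00301), although 20.7% of the exonic bases of Srprb overlap another gene on the same strand.

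Of 10 known ATF6 targets, chaperones and degradation factors of the ER, none was called in ACreb3l2 or AXBP1 by edgeR, and 3 were lower in ACreb3l2/AXBP1, with list medians of -0.1, -0.28 and -0.45. At an unadjusted p under 0.05 there were 2, 5 and 7, beside 16.8%, 9.97% and 29.7% of all genes, and DESeq2 called 1 in ACreb3l2 and 1 in AXBP1. The 2 of 10 in ACreb3l2 is close to the share of all genes. The 3 were Herpud1, of ER-associated degradation (log2 change -0.56, edgeR adjusted p = 0.00724), the secreted ER stress protein Manf (-0.64, edgeR adjusted p = 0.0322) and the disulfide isomerase Creld2 (-0.53, edgeR adjusted p = 0.0467). Hspa5, which encodes BiP, changed by -0.29 (edgeR adjusted p = 0.202). The calls of Manf and Creld2 were lost in 6 and 9 of 17 alternatives, and that of Herpud1 in none. Without replicate 2 of ACreb3l2/AXBP1 the change of Creld2 was -0.35.

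Of 10 IRE1 modulators and components of the ligase that rejoins Xbp1, 9 were tested and 0 were called in any of the 3 groups. The 2, 1 and 3 at an unadjusted p under 0.05 lie near the shares of all genes, 16.8%, 9.97% and 29.7%, and are no result about these genes. The lowest adjusted p was that of the ligase subunit Rtcb in ACreb3l2/AXBP1 (log2 change -0.29, edgeR adjusted p = 0.0517, called by DESeq2). Ern2, the second IRE1 gene, was too low to be tested, at 1.46 ± 2.06 normalized counts in WT (SD, n = 2). Of 7 known substrates of regulated IRE1-dependent decay (RIDD), 0 were called by edgeR or DESeq2, with 0, 1 and 1 at an unadjusted p under 0.05 and list medians of 0.05 in each group. The lowest adjusted p was that of Hgsnat in ACreb3l2/AXBP1 (log2 change -0.21, edgeR adjusted p = 0.0972). Bloc1s1, the best known of them, had 36.9 ± 9.56 normalized counts in WT (SD, n = 2), and 55.9% of its exonic bases overlap another gene on the same strand, so its count is uncertain.

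Of 9 substrates of the site proteases other than ATF6, 8 were tested. Creb3 was the 1 called in ACreb3l2, none was called in AXBP1 (3 at an unadjusted p under 0.05, 0 by DESeq2), and Creb3, Creb3l1 and Creb3l2 were called in ACreb3l2/AXBP1, all lower. The log2 changes of Creb3 were -0.55 and -0.74 (edgeR adjusted p = 0.0244 and 0.00446), and 15.2% of its exonic bases overlap Tln1, which is read from the other strand. The call of Creb3 in ACreb3l2 was lost in 9 of 16 alternatives, with adjusted p up to 0.15. In ACreb3l2/AXBP1 the log2 change was -1.56 for Creb3l1 (edgeR adjusted p = 0.0215) and -0.69 for Creb3l2 (edgeR adjusted p = 0.0428), calls that were lost in 3 and 10 of 17 alternatives. The change of Creb3l2 was -1.02 without replicate 1 of ACreb3l2/AXBP1 and -0.43 without replicate 2. Without WT replicate 2 the change of Creb3l1 was -1, and with a pseudocount of 1 in the FPKM fit it was -0.9, with adjusted p up to 0.18 over its alternatives. The ACreb3l2 transgene carries Creb3l2 sequence. Mean normalized counts of Creb3l2 were 28439 for WT, 26994 with the ACreb3l2 transgene alone, 20835 with the AXBP1 transgene alone and 17625 with both. The share of transgene reads in these counts was not tested. Srebf1 and Srebf2, the SREBP genes, changed by 0.05 and -0.08 in ACreb3l2/AXBP1 (edgeR adjusted p = 0.783 and 0.689). Mean normalized counts of Srebf1 were 17180 in WT, 20293 in ACreb3l2 and 19705 in AXBP1, and those of Srebf2 3045, 3197 and 3085. Neither gene was called in ACreb3l2 or AXBP1. Of 7 genes that regulate the proteases or ATF6, 1 was called, Pdia5, a disulfide isomerase that acts on ATF6, with a log2 change of -0.79 in ACreb3l2/AXBP1 (edgeR adjusted p = 0.0256, lost in 5 of 17 alternatives). The list had 0 called genes in ACreb3l2 and AXBP1 by edgeR and DESeq2, with 1 and 0 at an unadjusted p under 0.05. In ACreb3l2/AXBP1 up to 3 genes of the list were called among the alternatives.

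The third branch of the response gives a scale for these changes. Of 5 genes of the PERK branch, 4 fell in ACreb3l2 and 5 in ACreb3l2/AXBP1, while 0 were called in AXBP1 by edgeR and 4 by DESeq2, with 4 at an unadjusted p under 0.05. The list medians were -0.76, -0.92 and -0.59 in that order. In ACreb3l2/AXBP1 the factor Atf4 had a log2 change of -1.36 and its target Trib3 one of -2.22 (edgeR adjusted p = 0.000364 for both). Ddit3, which encodes CHOP, was also called there, at -0.83. In ACreb3l2 Trib3, Atf4 and Ddit3 were called, with log2 changes of -1.62, -0.92 and -0.76. The last of these calls was lost in 1 of 16 alternatives. Eif2ak3, which encodes the sensor PERK, had log2 changes of -0.59 with ACreb3l2 and -0.68 with both transgenes (edgeR adjusted p = 0.00794 and 0.00293, the first lost in 2 of 16 alternatives with values up to 0.0689), beside -0.27 and -0.54 for the IRE1 gene Ern1, the first of which did not pass and shrank without WT replicate 2, and -0.23 and -0.28 for Atf6. Between the single transgenic groups Eif2ak3 was lower in ACreb3l2 than in AXBP1 by a log2 difference of -0.53 (edgeR adjusted p = 0.0266). This call was lost in 7 of 16 alternatives, with adjusted p up to 0.276. The FPKM fits gave -0.33 to -0.31, beside a median of 0.183 over all genes in the FPKM values.

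**Figure D5:**
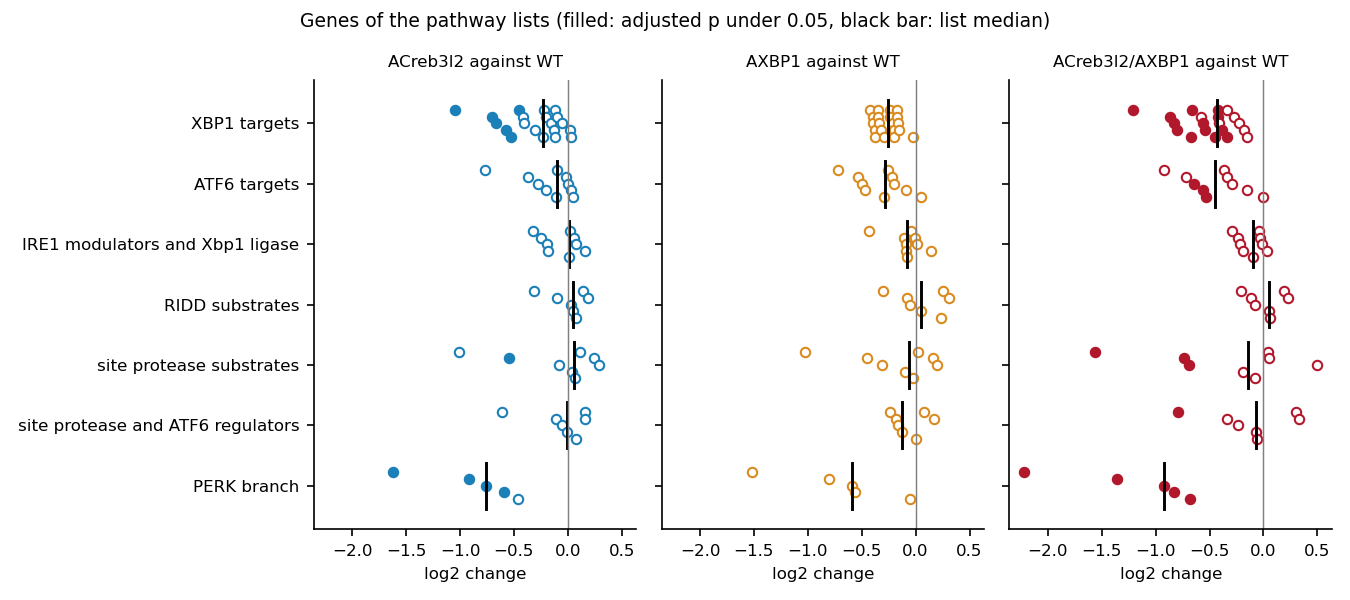
Log2 change against WT of each tested gene in the 7 pathway lists, 1 panel per transgenic group. Filled points have an edgeR adjusted p under 0.05, black bars are list medians, and vertical position within a list has no meaning. The ACreb3l2/AXBP1 panel holds the most filled points, among them 13 XBP1 targets and 5 PERK branch genes, and the AXBP1 panel holds none.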

How the data were processed

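The deposited raw counts, whole reads per Ensembl gene without normalization, were made by the authors with Trimmomatic, Tophat (mm10) and HTSeq-count. The deposited FPKM values were scaled by the authors for transcript length and library depth. The annotation release and the strand setting are not given in the sources used here, a software list names another aligner, and labels and methods differ on ribosomal depletion.

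Groups and columns came from the labels. Genes with a mean normalized count above 20 (15580 genes, 99.9% of counts) were fitted over all 8 libraries (28256086 to 37988912 counts) in edgeR 4.0.16 (R 4.3.3), with TMM, robust dispersion, 1 mean per group and Benjamini-Hochberg adjustment. The fit was tested on simulated data. Intervals are at 95%, and SEs come from the quasi-likelihood F. DESeq2 1.42.0, limma 3.58.1 on log2(FPKM + 0.1 or 1), other scalings, no filter and left-out libraries were alternatives.

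The genes and lists were chosen with earlier results of these data known. Named were all 6 genes, up to 4 called genes per list and comparison (lowest adjusted p first, or the lowest where none was called), and the 3 genes of highest r with each, and the others were chosen after their values were seen. Sequences came from GENCODE M21, RefSeq and the study's cloning list.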

Additional observations from a re-analysis of the deposited data

How the results depend on the processing

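The number of the 6 genes called in ACreb3l2/AXBP1 against WT was 2. It was 1 with the replicate block, 1 in the FPKM fits with pseudocount 0.1 and 1, and 0 with only the groups compared, and ran from 0 to 2 without 1 library. With library sizes alone it was 2, with Ern1 lower and Mbtps1 higher in place of Atf6. Without WT replicate 2 or ACreb3l2/AXBP1 replicate 2 it was 0. The number was 0 in each other comparison. It rose to 1 in ACreb3l2 against WT without the filter and with DESeq2 (0 to 1 without 1 library), to 1 in AXBP1 against WT without the filter (Ern1), to 1 in ACreb3l2 against AXBP1 without the filter, with only the groups compared and with DESeq2 (0 to 1 without 1 library), to 1 in ACreb3l2/AXBP1 against ACreb3l2 without the filter and with DESeq2, and to 1 in the interaction without the filter. The gene was Xbp1 in all of these but the one named. Without the filter more genes were called in all. The number went from 473 to 1455 in ACreb3l2 against WT, from 0 to 628 in AXBP1 and from 1566 to 3209 in ACreb3l2/AXBP1. It went from 112 to 730 in ACreb3l2 against AXBP1, from 0 to 513 in ACreb3l2/AXBP1 against ACreb3l2 and from 0 to 126 in the interaction. The cause was not tested.

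Directions turned for 6 small changes, none of them called. Atf6b in ACreb3l2 was 0.03 in both FPKM fits. In AXBP1 the FPKM fits gave -0.12 for Xbp1 and -0.03 for Mbtps1, beside a median of -0.16 over all genes in the FPKM values. Without 1 library, Mbtps2 in ACreb3l2 ran from -0.06 to 0.16, Xbp1 in AXBP1 from -0.03 to 0.15 and in ACreb3l2/AXBP1 against AXBP1 from -0.03 to 0.42, and the interaction of Ern1 from -0.01 to 0.3.

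Over all alternatives, XBP1 targets called ran from 2 to 8 in ACreb3l2 (6), 0 to 7 in AXBP1 (0) and 5 to 17 in ACreb3l2/AXBP1 (13). In the last group ATF6 targets ran from 1 to 8 (3), site protease substrates from 1 to 4 (3) and PERK branch genes from 4 to 5 (5). ATF6 targets ran from 0 to 2 in ACreb3l2 (0) and 0 to 4 in AXBP1 (0), site protease substrates from 0 to 3 (1) and 0 to 2 (0), and PERK branch genes from 3 to 5 (4) and 0 to 4 (0), with the last count above 0 in 8 of 16 alternatives.

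Replicate numbers did not pair the libraries (correlations of deviations from -0.2 to 0.09). With the replicate block, Ern1 was still called and Atf6 was not, no other call of the 6 genes changed, and all genes called in ACreb3l2/AXBP1 went from 1566 to 1113. Crossed numbers, an alternative chosen after seeing the data, gave 2 of the 6 and 2059 in all.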
